A study of Bos taurus with 18 samples.

Results

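Solute carriers are the membrane proteins that move sugars, amino acids, metals, ions and metabolites into and out of cells and organelles. Their genes were followed here in cells from cow's milk. Members were all genes whose platform symbol has the form SLC, family number, A, member number, leaving out the glucose carriers SLC2A1 and SLC2A3 and the lactate exporter SLC16A3. The array held 162 such genes, on 229 probe sets, among 9155 named genes on 13292 probe sets. A probe set is a group of short probes on the array that reports 1 transcript. Of the members, 116 had 1 probe set and 46 had more than 1, and where there were several, the one that was brightest on average across the 18 arrays stood for the gene. Members were grouped by substrate: amino acids (26 genes), carboxylates (4), glucose and other sugars (14), inorganic ions and pH (17), lipids, bile acids and choline (10), metals and haem (21), phosphate and sulphate (6), nucleotide sugars (5, the SLC35 genes), mitochondrial carriers (27, the SLC25 genes), and peptides, nucleosides, vitamins, organic ions and others (30). The remaining 2, SLC7A6OS and SLC4A1AP, match the form of the symbol but are named for a neighbouring or binding partner gene and are not transporters by name.

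As background, most plasma membrane carriers couple an uphill substrate to the sodium, proton or chloride gradient, or let a substrate run down its own gradient. The SLC25 genes encode the carriers of the inner mitochondrial membrane (a few sit in peroxisomes), which exchange ADP for ATP and pass citrate, phosphate, iron and other metabolites between cytosol and matrix. In the udder, secretory epithelial cells draw glucose, amino acids and fatty acids from blood and export zinc, citrate and phosphate into milk. Phagocytes use carriers of the phagosome and lysosome membrane to withdraw metals from microbes.

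RNA came from cells of the milk of 18 cows, 6 healthy, 6 with mastitis (inflammation of the udder) and 6 with endometritis (inflammation of the uterine lining), with 1 expression array per cow. According to the labels, the healthy cows had no clinical sign of disease, fewer than 100000 cells per ml of milk, an age of 2 to 4 years and 1 to 8 lactations, and most were in early lactation, 10 to 100 days after calving. The cows with mastitis or endometritis had 1 to 8 lactations and were sampled 10 to 220 days after calving, with no age given. For the healthy cows, the age and the highest lactation number in the labels contradict each other, so their ages are not settled. Days since calving may thus differ along with disease, and whether age does is unknown. The array values are on a log2 scale, so a difference of 1 is a 2-fold change, and the median of all values in the table is 2.55, close to the lowest value of 2.43. A gene with all 6 arrays of a group at or under 2.55 is called at background there. Values of different genes come from different probes and were not set against each other.

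The cells in the samples differed between groups, as marker genes show. Of 9 measured neutrophil genes, 7 were higher in mastitis than in healthy milk cells, and their mean log2 value ran from 7.78 to 9.13 on the mastitis arrays against 4.53 to 6.21 on the healthy and 3.99 to 6.43 on the endometritis arrays. Of 20 mammary secretory genes, 16 were lower in mastitis, with means of 5.02 to 7.15 against 9.04 to 10.8 in healthy and 7.81 to 11.0 in endometritis. Of 11 epithelial genes, 9 were lower, with means of 2.54 to 2.85 against 3.92 to 5.88 and 3.16 to 5.84. KRT8, CLDN3 and ESRP1 were at background on every mastitis array, although KRT8 was so in all 3 groups. In the limma fit, none of 8 macrophage and 11 T cell genes was called (1 and 0 at an unadjusted p under 0.05), 1 of 4 B cell genes was higher, and the 5 erythroid genes were all at background in healthy. A sign of RNA quality moved with mastitis as well. The 3′ minus 5′ difference of the GAPDH control was 0.350 to 1.52 on healthy, 0.0793 to 0.715 on mastitis and 0.304 to 1.05 on endometritis arrays. A further array control, Dap, is not read as a sign of RNA quality here. It ran from 6.570 to 8.972 on healthy, 5.470 to 6.495 on mastitis and 5.778 to 7.720 on endometritis arrays. On this control the mastitis arrays lay wholly below the healthy ones. Whether what it measures takes part in the differences between these groups was not tested. In bulk cells like these, fewer cells of a type and less RNA per cell cannot be told apart.

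Many solute carriers were dim in milk cells. Of the 162 members, 30 (18.5%) were at or under 2.55 on all 18 arrays, against 13.5% of all named genes, and 62 (38.3%) were above it on all 18, against 54.3%. The other 70 crossed it, and 95 members were above it on at least 6 arrays. The number of members above 2.55 was 89 to 97 on the healthy arrays, 84 to 93 on the mastitis arrays and 84 to 98 on the endometritis arrays, so the 3 groups overlapped in how many carriers were detected.

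Between mastitis and healthy milk cells, 11 solute carrier genes rose and 15 fell in the limma fit across all probe sets, 26 of 162 or 16.0%, while 136 did not pass. Among all 9155 named genes 27.1% were called in this comparison, 11.3% higher and 15.8% lower. All 26 were among the 95 members above 2.55 on at least 6 arrays. Dim genes are a larger share of the carriers than of all named genes. The gap between 16.0% and 27.1% was not tested and is not read as a result about carriers. The metal exporter of phagosomes SLC11A1, the hexose carrier SLC2A6 and the glutamine carrier SLC1A5 were among those that rose. The fatty acid carrier SLC27A6, the ADP/ATP carrier SLC25A4 and the lysosomal sialic acid exporter SLC17A5 were among those that fell. Of the 26, 18 differed by at least 2-fold. Scaling the arrays to their hybridisation controls raises every difference in this comparison by 0.27, dim probe sets included. All differences given are relative to the deposited scale. The median difference over the 162 members was 0.00, and over all named genes it was -0.01. For 13 members the 6 mastitis arrays lay wholly apart from the 6 healthy arrays, a pattern seen in 16.6% of named genes.

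**Figure D1:**
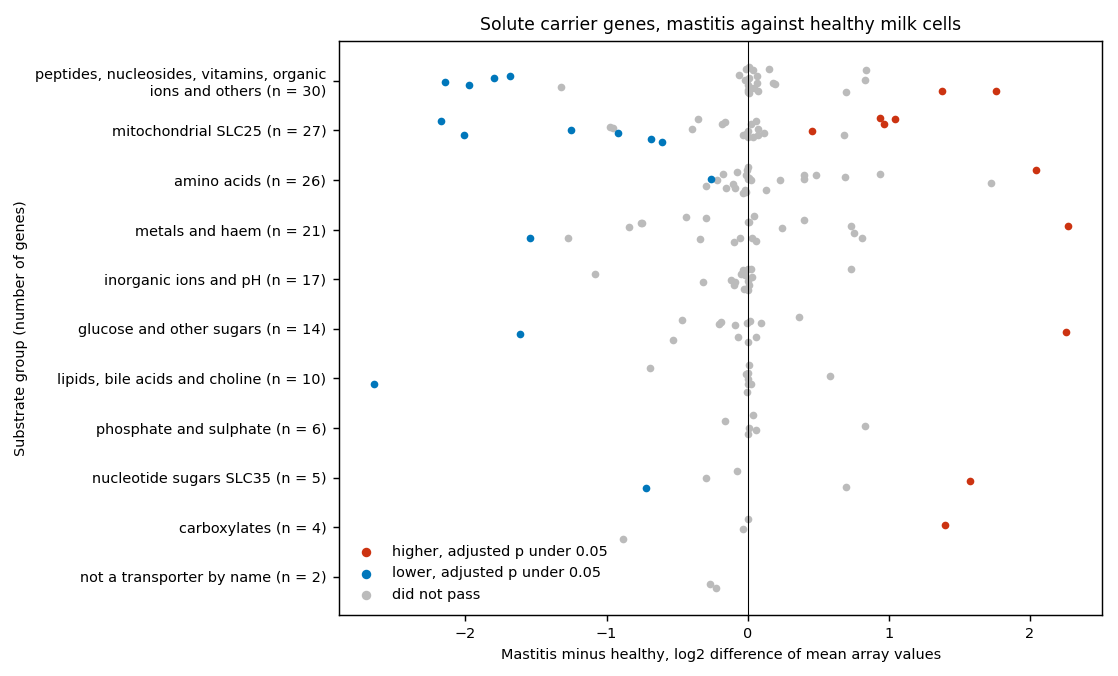
Mastitis minus healthy difference (x axis, log2 difference of group means over 6 arrays each) of each of the 162 solute carrier genes, arranged by substrate group (y axis). Red points are the 11 genes that were higher and blue points the 15 that were lower at an adjusted p under 0.05, grey points did not pass. The mitochondrial SLC25 row holds 10 of the 26 coloured points, and most grey points lie near 0.

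Amino acid carriers gave 1 rise and 1 fall among 26 measured genes, and 24 did not pass. SLC1A5, the sodium-coupled exchanger that brings glutamine and other neutral amino acids into dividing and immune cells, had log2 values of 5.49, 6.08 and 7.58 (lowest, median and highest) in healthy cows and 7.20, 8.79 and 9.56 in mastitis. Mastitis arrays 1 and 5 lay inside the healthy range and the other 4 above it. The gene rose 4.12-fold, a log2 difference of 2.04 ± 0.52 (SE, n = 6 per group, adjusted p = 0.0113 by limma). In endometritis it ran from 5.47 through 6.73 to 8.26, overlapping healthy.

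SLC6A14, a carrier of neutral and cationic amino acids, was close to the floor of the table throughout. It had a median of 2.81 and a highest value of 2.98 in healthy cows, and 2.55 and 2.57 in mastitis. It fell by 0.26 ± 0.07 on the log2 scale (adjusted p = 0.0114 by limma), but the difference turned to 0.01 when arrays were scaled to their hybridisation controls.

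Several well-known amino acid carriers did not pass. SLC7A7, which exports cationic amino acids such as arginine, was at 3.02, 4.43 and 5.52 in healthy cows and 5.43, 6.17 and 6.53 in mastitis, and only mastitis array 2 overlapped the healthy ones. The difference was 1.72 ± 0.61 (adjusted p = 0.0601 by limma). SLC38A2, an amino acid carrier that cells induce when amino acids run short, had a median of 8.18 in healthy, 8.88 in mastitis and 9.19 in endometritis, with a mastitis difference of 0.94 ± 0.34 (adjusted p = 0.0644), and its other probe set was called higher. SLC7A5 and SLC3A2, the light and heavy chains of the exchanger for large neutral amino acids, differed by -0.08 ± 0.41 and 0.40 ± 0.25 (adjusted p = 0.97 and 0.325 by limma), and the sign of SLC7A5 turned to 0.20 under scaling to hybridisation controls. The glutamate carrier SLC1A3 was at background on all 6 mastitis arrays, where its highest value was 2.51, against a highest of 3.62 in healthy cows.

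Among the 4 carboxylate carriers, SLC13A3 rose and 3 did not pass. SLC13A3 takes up dicarboxylates such as succinate with sodium. Its healthy values were 2.56, 2.63 and 3.26, and its mastitis values 3.09, 4.19 and 4.88. A single mastitis array lay within the healthy range, and a single healthy array stood well above the floor. The difference was 1.40 ± 0.24, or 2.64-fold (adjusted p = 0.000718 by limma). SLC16A1, the carrier of lactate and pyruvate across the plasma membrane, had medians of 5.02 in healthy and 4.54 in mastitis and did not pass (-0.88 ± 0.59, adjusted p = 0.361).

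Sugar carriers gave 1 rise and 1 fall among 14 genes. SLC2A6, a hexose carrier of the facilitative family found on lysosomes of leukocytes, was barely above the floor in healthy cows at 2.43, 2.74 and 2.98, and reached 3.60, 5.05 and 6.10 in mastitis. Every mastitis array was above every healthy array. The rise was 2.25 ± 0.30, or 4.77-fold (adjusted p = 0.000127 by limma), which is the smallest adjusted p among the 162 members.

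SLC5A1, which couples glucose uptake to sodium, moved the other way. Healthy values were 2.86, 4.20 and 5.40, and the mastitis values 2.43, 2.49 and 2.75 lay wholly below them, with 1 of 6 arrays above 2.55. The difference was -1.61 ± 0.47 (adjusted p = 0.0238 by limma), and it missed the threshold without healthy array 2, 3 or 4 (adjusted p = 0.0561 to 0.0612). The second probe set of SLC5A1 showed a difference of 0.01 (adjusted p = 0.503). SLC2A8, an intracellular hexose carrier, differed by -0.53 ± 0.22 (adjusted p = 0.117), and SLC5A9, a sodium-coupled carrier of mannose and related sugars, by -0.47 ± 0.19 (adjusted p = 0.104), although its mastitis and healthy arrays did not overlap.

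No carrier of inorganic ions and pH passed in the limma fit among 17, and 1 had an unadjusted p under 0.05. The differences ran from -1.08 for the sodium bicarbonate carrier SLC4A7 to 0.73 for SLC26A11. SLC12A2, which brings sodium, potassium and chloride into cells, differed by -0.05 ± 0.25 (adjusted p = 0.964 by limma), with the sign turning to 0.22 under scaling to hybridisation controls. None of the 6 phosphate and sulphate carriers passed either, or had an unadjusted p under 0.05. SLC20A1, the widely used sodium phosphate carrier, had medians of 5.86 in healthy and 6.83 in mastitis (0.83 ± 0.59, adjusted p = 0.4), while the sodium phosphate carrier SLC34A2 stayed at 2.43 on every array.

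Of 10 carriers of lipids, bile acids and choline, 6 were at background on every array and 1 fell. SLC27A6, a long-chain fatty acid carrier of the lactating udder, was at 3.12, 6.16 and 6.60 in healthy cows and 2.43, 2.62 and 2.84 in mastitis. No mastitis array reached the lowest healthy array, and healthy cows themselves were split between 4 arrays near 6 and 2 near 3. The difference was -2.65 ± 0.73 (adjusted p = 0.0168 by limma), with the mastitis values too near the floor for an exact fold. It did not pass with the GAPDH covariate (-1.88, adjusted p = 0.262). In endometritis the gene ran from 2.45 through 4.78 to 6.56, spanning both ranges.

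Metal carriers gave 1 rise and 1 fall among 21 genes. SLC11A1 pumps iron and manganese out of the phagosome of macrophages and neutrophils. It had values of 4.71, 6.37 and 8.14 in healthy cows and 7.92, 8.70 and 9.28 in mastitis. The mastitis arrays were packed at the top of a wide healthy range, and the lowest of them overlapped it. The rise was 2.27 ± 0.73, or 4.82-fold (adjusted p = 0.0383 by limma), and it missed the threshold without any one of healthy arrays 3, 4 and 5 or mastitis arrays 1 to 5 (adjusted p = 0.0528 to 0.0904). It was 0.91 (adjusted p = 0.6) with the GAPDH difference as a covariate.

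SLC39A9, a zinc importer, was the metal carrier that fell. Healthy values were 5.28, 5.96 and 6.15, mastitis values 3.60, 4.36 and 4.54, and endometritis values 5.14, 5.73 and 6.98. The mastitis arrays lay below all arrays of both other groups. The difference from healthy was -1.55 ± 0.31 (2.92-fold, adjusted p = 0.00224 by limma). The second probe set of the gene differed by -0.36 (adjusted p = 0.344).

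The other metal carriers named here did not pass against healthy. SLC11A2, the proton-coupled importer of ferrous iron related to SLC11A1, differed by 0.81 ± 0.32 (adjusted p = 0.0921 by limma). SLC39A8, an importer of zinc and manganese, had a wide spread, 6.23 to 9.62 in healthy and 5.91 to 9.19 in mastitis (-1.27 ± 0.72, adjusted p = 0.268). SLC30A2, which loads zinc into milk secretory vesicles, was at 2.59, 3.03 and 4.52 in healthy cows and no higher than 2.73 in mastitis (-0.76 ± 0.43, adjusted p = 0.265), and its sign turned to 0.14 with the GAPDH covariate.

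The mitochondrial carriers held 10 of the 26 called members. Of 27 SLC25 genes, 4 rose, 6 fell and 17 did not pass, a called share of 37.0% beside 27.1% of all named genes. That gap was not tested. Carriers of adenine nucleotides were found on both sides, with SLC25A4 lower and SLC25A25 higher. The SLC25A4 call was kept in all 18 fits with 1 array left out, while that of SLC25A25 was lost in 12.

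SLC25A4, an ADP/ATP exchanger, was at 6.48, 7.17 and 7.75 in healthy cows, 3.86, 4.95 and 6.00 in mastitis and 5.92, 6.67 and 7.33 in endometritis. The mastitis arrays lay wholly below the healthy ones and touched only the lowest endometritis values. The fall was 4.51-fold, a difference of -2.17 ± 0.38 (adjusted p = 0.000884 by limma). The related exchangers SLC25A5 and SLC25A6 had differences of -0.95 ± 0.35 and -0.97 ± 0.39 and did not pass (adjusted p = 0.0661 and 0.095), although 1 of the 3 probe sets of SLC25A6 was called lower. The phosphate carrier SLC25A3 differed by -0.39 ± 0.30 (adjusted p = 0.437). Over the 17 SLC25 genes that did not pass, differences ran from that of SLC25A6 to 0.69 for SLC25A20, the exchanger of carnitine and acylcarnitine, and 3 of them were at background on every array.

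SLC25A1 exports citrate from mitochondria, the source of cytosolic acetyl-CoA for fatty acid synthesis. Its healthy values of 3.50, 4.40 and 5.56 met mastitis values of 2.82, 3.28 and 3.53, with only the top mastitis array inside the healthy range, and the difference was -1.25 ± 0.31 (adjusted p = 0.00918 by limma). SLC25A21, the carrier of oxodicarboxylates from lysine breakdown, had a healthy median of 4.97 and a mastitis median of 2.48, with 2 of 6 mastitis arrays above 2.55. Its difference of -2.01 ± 0.58 (adjusted p = 0.0221) missed the threshold without healthy array 2, 3 or 4 (adjusted p = 0.0516 to 0.0576).

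Smaller falls were seen for SLC25A11, the exchanger of oxoglutarate and malate (-0.68 ± 0.19, adjusted p = 0.017 by limma), and for SLC25A26, which imports S-adenosylmethionine (-0.61 ± 0.17, adjusted p = 0.0183). The mastitis arrays of SLC25A11 lay wholly below the healthy ones, at 3.04 to 3.71 against 3.75 to 4.51, while those of SLC25A26 only touched them. For both, the other probe set tried did not pass, and neither passed when arrays were scaled to hybridisation controls (adjusted p = 0.52 in each case). The peroxisomal carrier SLC25A17 fell by 0.92 ± 0.30 (adjusted p = 0.0404) and missed the threshold with 1 array removed in 9 of 18 cases (adjusted p = 0.051 to 0.0962), those without healthy arrays 2 to 5, mastitis arrays 1, 2, 4 or 6, or endometritis array 6.

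SLC25A33, which brings pyrimidine nucleotides into mitochondria, showed the tightest rise. Healthy values were 4.65, 5.06 and 5.36, mastitis values 5.61, 5.99 and 6.19 and endometritis values 4.51, 4.84 and 4.92. The mastitis arrays were above every other array, by less than 1 log2 unit on average against healthy. The difference was 0.94 ± 0.13 (1.92-fold, adjusted p = 0.000169 by limma), and both probe sets of the gene were called.

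SLC25A37, or mitoferrin, carries iron into mitochondria and was at 3.42, 3.61 and 4.29 in healthy and 3.82, 4.69 and 5.49 in mastitis. Of the 6 mastitis arrays, 3 stood clear of the healthy range. The difference was 0.97 ± 0.29 (adjusted p = 0.0294 by limma) and its call depended on single arrays: it was lost in 8 of 18 cases (adjusted p = 0.052 to 0.0721), those without healthy arrays 1, 2, 3, 4 or 6 or mastitis arrays 1, 2 or 4.

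SLC25A16, a carrier linked to coenzyme A, rose by 1.04 ± 0.32 (adjusted p = 0.0323 by limma), with values up to 6.98 in mastitis against a healthy maximum of 4.69. It missed the threshold without healthy array 1, 2, 3 or 4 or mastitis array 4 (adjusted p = 0.0518 to 0.071). SLC25A25, a calcium-regulated exchanger of ATP-magnesium for phosphate, rose by 0.46 ± 0.15 from a healthy median of 2.72 near the floor (adjusted p = 0.0451). That call was lost in 12 of 18 fits leaving out 1 array, those without any healthy array, mastitis array 1, 2 or 3, or endometritis array 2, 4 or 6 (adjusted p = 0.0516 to 0.107), and its second probe set showed no rise (a difference of -0.00).

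Of 5 SLC35 carriers, which move nucleotide sugars into the Golgi and endoplasmic reticulum for glycosylation, 1 rose and 1 fell. SLC35A5 was at 3.81, 4.41 and 5.47 in healthy cows and 5.48, 6.08 and 6.92 in mastitis. The 2 ranges met end to end without overlap. The difference was 1.57 ± 0.39 (2.97-fold, adjusted p = 0.0097 by limma), and it was 0.76 (adjusted p = 0.256) with the GAPDH covariate. SLC35A4 fell by 0.72 ± 0.24 (adjusted p = 0.0469) and lost its call in 15 of the 18 fits with 1 array left out, all but those without healthy array 1 or 6 or endometritis array 3 (adjusted p = 0.0516 to 0.112). On its second probe set the difference was -0.40 and did not pass (adjusted p = 0.142 by limma). SLC35A2, which brings UDP-galactose into the Golgi, where lactose is made, did not pass (0.70 ± 0.31, adjusted p = 0.14).

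Among 30 carriers of peptides, nucleosides, vitamins, organic ions and others, 2 rose and 4 fell. SLC17A5, or sialin, exports sialic acid from lysosomes. It was at 5.43, 5.81 and 6.34 in healthy cows, 2.94, 3.29 and 4.76 in mastitis and 4.97, 6.18 and 6.48 in endometritis. The mastitis arrays lay below both other groups without overlap. The difference from healthy was -2.14 ± 0.36 (4.42-fold, adjusted p = 0.000727 by limma).

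SLC29A1, the equilibrative nucleoside carrier, was at 3.18, 4.79 and 5.34 in healthy cows and near the floor in mastitis, at 2.43, 2.52 and 2.75. SLC22A5, which takes up carnitine, showed the same picture with healthy values of 2.85, 4.31 and 5.67 and mastitis values of 2.43, 2.60 and 2.72. Neither gene had a mastitis array inside the healthy range. SLC29A1 differed by -1.97 ± 0.51 (adjusted p = 0.0116 by limma) and SLC22A5 by -1.69 ± 0.49 (adjusted p = 0.0226). The call of SLC22A5 was lost without healthy array 3 or 4 (adjusted p = 0.0565 and 0.054) and on its second probe set, where the difference was -0.00. With the GAPDH difference as a covariate, SLC29A1 differed by -0.88 and SLC22A5 by -0.75, and neither passed (adjusted p = 0.295 and 0.464).

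SLC6A8 brings creatine into cells and fell from a median of 4.70 to one of 3.04, a difference of -1.80 ± 0.49 (adjusted p = 0.0152 by limma). Its lowest healthy array, at 3.05, lay within the mastitis range of 2.65 to 3.47. On its second probe set the difference was -0.56 and did not pass (adjusted p = 0.105).

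The 2 genes of this group that rose were SLC46A2, a relative of the proton-coupled folate carrier, and SLC66A2, a protein of the PQ-loop family. SLC46A2 was at 2.50, 3.24 and 3.51 in healthy cows and 4.02, 5.17 and 5.42 in mastitis, and every mastitis array was above every healthy one. Its difference was 1.76 ± 0.29 (3.39-fold, adjusted p = 0.000574 by limma). SLC66A2 was at 3.53, 3.74 and 4.20 in healthy cows and 4.04, 5.12 and 5.97 in mastitis, so that a single mastitis array overlapped the healthy range, and its difference was 1.37 ± 0.23 (2.59-fold, adjusted p = 0.000664). The 24 genes of this group that did not pass had differences from -1.32 for the nucleoside carrier SLC28A3, of whose 3 probe sets 1 was called lower, to 0.84 for the noradrenaline carrier SLC6A2, and 8 were at background on every array. SLC6A2 was at 2.43 on every healthy and endometritis array and reached 4.43 in mastitis (adjusted p = 0.0501 by limma).

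**Figure D2:**
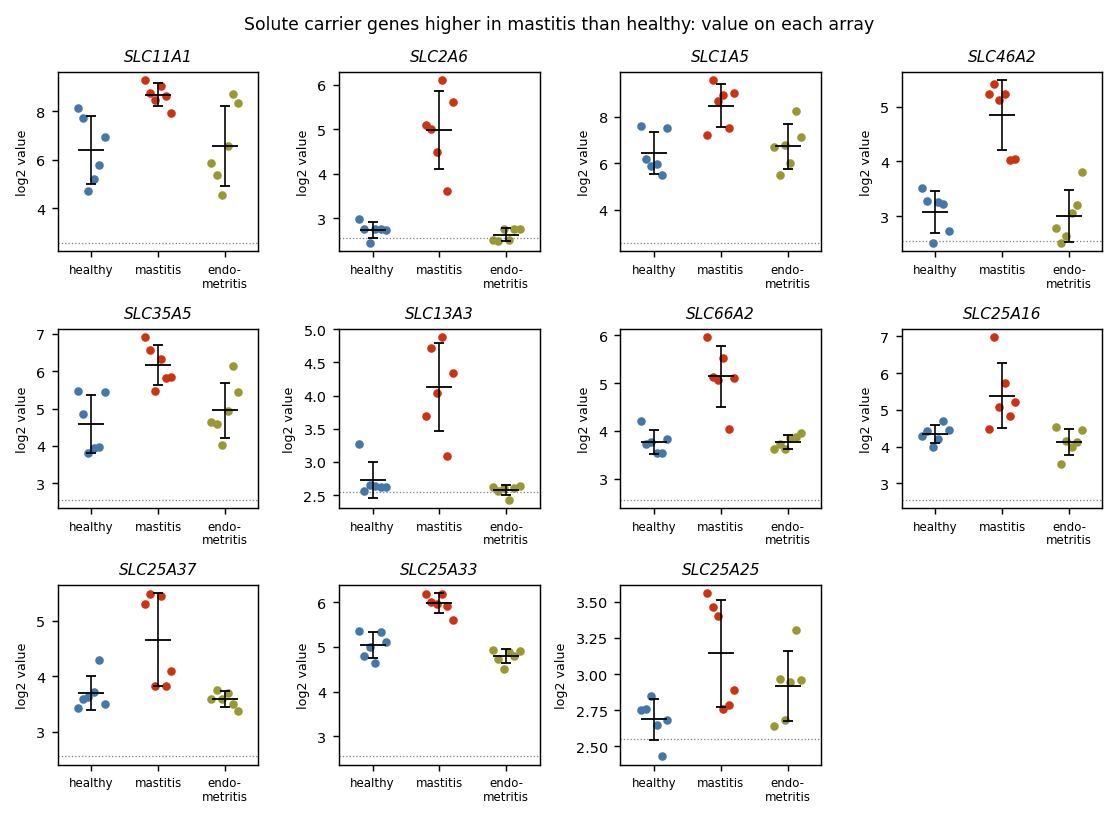
Log2 array value (y axis) of the 11 solute carrier genes that were higher in mastitis than in healthy milk cells, by group (x axis). Each point is the array of 1 cow, the long bar is the group mean, the error bar its SD over 6 arrays, and the dotted line the table median of 2.55. SLC2A6, SLC46A2, SLC35A5 and SLC25A33 have every mastitis point above every healthy point, while SLC11A1 and SLC1A5 overlap.

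The mastitis cows did not all show the rises equally. Of the 11 members that rose, 9, 11, 10, 10, 6 and 9 were above every healthy array on mastitis arrays 1 to 6. The count was lowest on mastitis array 5. On the endometritis arrays 0, 1, 0, 1, 4 and 3 of the 11 were above every healthy array, the 2 highest counts being on endometritis arrays 5 and 6.

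The falls were present on every mastitis array. Of the 15 members that fell, 12 to 15 were below every healthy array on each mastitis array, and 3 to 6 of them were at or under 2.55 there. On the endometritis arrays 1, 4, 2, 6, 7 and 2 of the 15 were below every healthy array. Since the 26 members were chosen on the mastitis and healthy arrays, these counts describe them and were not tested. How far the marker values given above take part in these differences was not tested. For RNA quality there was 1 fit, with the GAPDH difference as a covariate, in which 5 of the 11 rises and 2 of the 15 falls passed. The GAPDH difference itself differs between the groups (medians of 0.838 on healthy and 0.387 on mastitis arrays). With this covariate, RNA quality and disease therefore cannot be told apart. Besides the values given with the genes, that fit moved SLC25A21 to -0.96, SLC5A1 to -0.77, SLC6A8 to -0.83, SLC25A1 to -0.83, SLC25A17 to -0.44 and SLC35A4 to -0.25, none of which passed (adjusted p = 0.206 to 0.669). The same fit moved SLC1A5 to 1.89, SLC25A16 to 1.08, SLC25A37 to 0.87 and SLC25A25 to 0.40. It moved SLC39A9 to -1.11, SLC25A11 to -0.62, SLC25A26 to -0.54 and SLC6A14 to -0.25. None of these passed either (adjusted p = 0.0714 to 0.291 by limma). The 7 that passed were SLC13A3, SLC25A33, SLC2A6, SLC46A2, SLC66A2, SLC17A5 and SLC25A4. They also passed with any 1 array left out and in every other alternative that applied to them. Of these 7, SLC25A33 alone had a second probe set to try.

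**Figure D3:**
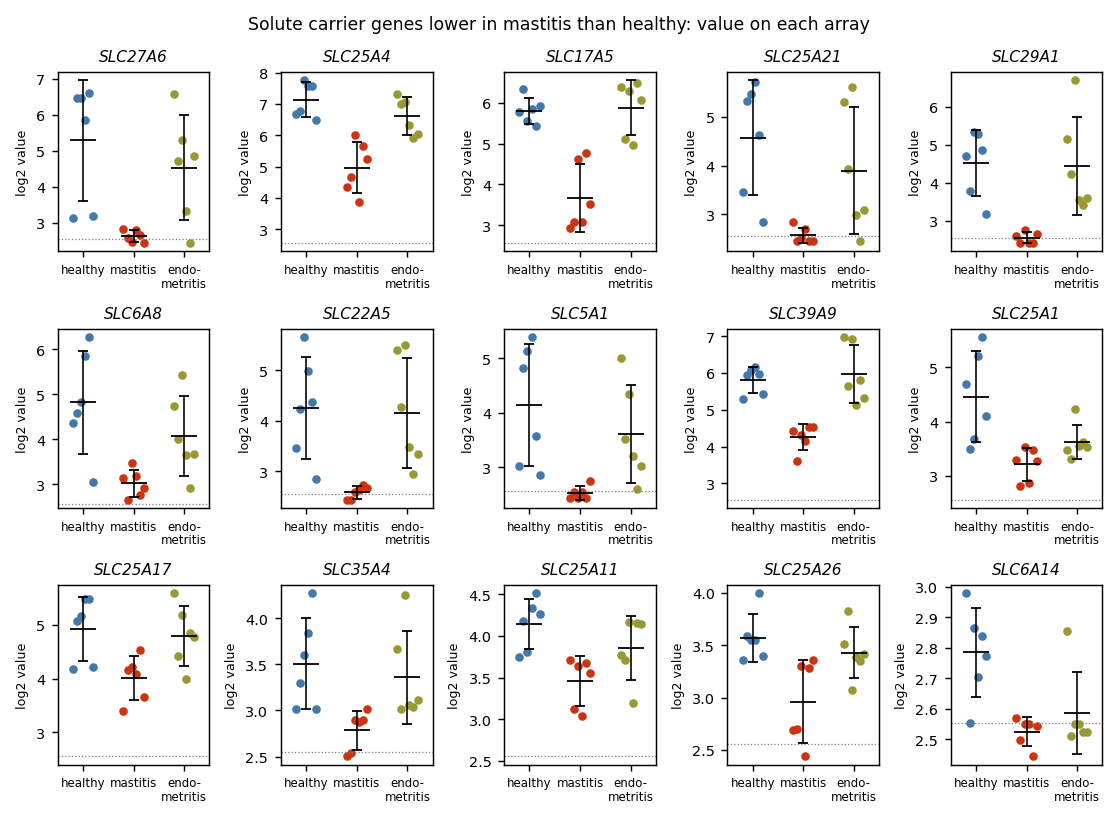
Log2 array value (y axis) of the 15 solute carrier genes that were lower in mastitis than in healthy milk cells, by group (x axis). Each point is the array of 1 cow, the long bar is the group mean, the error bar its SD over 6 arrays, and the dotted line the table median of 2.55. SLC27A6, SLC29A1, SLC22A5 and SLC5A1 lie near the floor in mastitis, while SLC17A5, SLC25A4 and SLC39A9 stay above it.

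Between endometritis and healthy milk cells, no solute carrier passed in the limma fit, and 0.0% of all 9155 named genes did. At an unadjusted p under 0.05 there were 6 members, against 5.44% of named genes, and the smallest adjusted p among the members was 0.925. No other setting tried gave a called member in this comparison. No member had endometritis arrays wholly apart from the healthy ones, a pattern found in 0.295% of named genes.

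The 6 members with the smallest unadjusted p are given as values that did not pass. SLC38A2 differed by 0.77 ± 0.34 (unadjusted p = 0.0375, adjusted p = 0.925 by limma), with medians of 8.18 in healthy and 9.19 in endometritis. The citrate carrier SLC25A1 differed by -0.84 ± 0.31 (unadjusted p = 0.0158), with medians of 4.40 and 3.55. The 2 groups overlapped for both genes. SLC22A23, an orphan of the organic ion family, SLC25A40, a mitochondrial carrier of glutathione, SLC4A9, a bicarbonate carrier, and SLC6A14 all had highest values of at most 3.06 in these 2 groups, near the floor.

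Against endometritis, mastitis milk cells had 8 solute carriers higher and 11 lower, 19 of 162 or 11.7%, beside 20.0% of all named genes (9.14% higher and 10.9% lower). All 19 differed by at least 2-fold, and 143 did not pass. For 12 members the arrays of the 2 groups lay wholly apart, beside 11.0% of named genes. This comparison uses the same mastitis arrays as the one with healthy cows, so overlap of the calls is no independent support. Called in both were 8 higher and 5 lower members.

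The 8 higher members were SLC1A5, SLC13A3, SLC2A6, SLC25A16, SLC25A33, SLC25A37, SLC46A2 and SLC66A2. SLC2A6, at 2.49, 2.63 and 2.75 in endometritis, was 5.12-fold higher in mastitis, a difference of 2.36 ± 0.30 (adjusted p = 0.00012 by limma). SLC25A33 had the smallest adjusted p, 4.42e-05, for a difference of 1.19 ± 0.13. The differences were 1.84 ± 0.29 for SLC46A2, 1.55 ± 0.24 for SLC13A3 and 1.37 ± 0.23 for SLC66A2 (adjusted p = 0.000609, 0.000511 and 0.00103). For these 5 genes no mastitis array overlapped the endometritis arrays.

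SLC25A16 differed by 1.26 ± 0.32 (adjusted p = 0.0152 by limma). SLC1A5 and SLC25A37 differed by 1.75 ± 0.52 and 1.08 ± 0.29 (adjusted p = 0.0338 and 0.021). Their calls were less steady: that of SLC1A5 was lost without endometritis arrays 1 to 4 or mastitis arrays 2, 3, 4 or 6 (adjusted p = 0.0557 to 0.0789), and that of SLC25A37 without mastitis array 1 or 4 (adjusted p = 0.0535 and 0.0537). SLC1A5 also missed the threshold with a block on the number in the sample titles (adjusted p = 0.0552). SLC11A1 and SLC35A5, which had risen against healthy, differed from endometritis by 2.10 ± 0.73 and 1.20 ± 0.39 without passing (adjusted p = 0.0659 and 0.0512).

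Lower members shared with the healthy comparison were SLC17A5 (-2.22 ± 0.36, adjusted p = 0.000866 by limma), SLC39A9 (-1.71 ± 0.31, adjusted p = 0.00176), SLC25A4 (-1.65 ± 0.38, adjusted p = 0.00766), SLC29A1 (-1.89 ± 0.51, adjusted p = 0.0194) and SLC22A5 (-1.58 ± 0.49, adjusted p = 0.0396). Of these, SLC22A5 lost its call in 10 fits with 1 array left out, those without endometritis arrays 1 to 3, healthy array 2 or any mastitis array (adjusted p = 0.0513 to 0.0977), and on its second probe set, where the difference was -0.0013. The second probe set of SLC39A9 differed by -0.63 (adjusted p = 0.0824). SLC25A4 alone of the 5 had arrays that overlapped between mastitis and endometritis.

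The other 6 lower members had not passed against healthy. The largest was SLC16A1, the lactate and pyruvate carrier, at 3.43, 4.54 and 5.41 in mastitis and 5.23, 6.16 and 8.47 in endometritis. The top of the mastitis range overlapped the bottom of the endometritis range, with healthy cows in between at 4.42, 5.02 and 6.77. Its difference was -2.08 ± 0.59 (4.22-fold, adjusted p = 0.0255 by limma), lost without endometritis array 1 or 3 or mastitis array 1 or 4 (adjusted p = 0.0593 to 0.0647), and its endometritis minus healthy difference of 1.20 ± 0.59 did not pass (unadjusted p = 0.0594).

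SLC33A1, which imports acetyl-CoA into the endoplasmic reticulum, was at 3.80, 4.58 and 5.30 in mastitis and 5.26, 5.90 and 6.57 in endometritis, a difference of -1.27 ± 0.34 (adjusted p = 0.0176 by limma). Its ranges barely overlapped. SLC4A7, the sodium bicarbonate carrier that takes part in phagosome acidification, differed by -1.72 ± 0.55 (adjusted p = 0.0467), and its call was lost in 12 of 18 fits with 1 array left out, those without endometritis arrays 1, 2, 4 or 5, healthy arrays 1, 4 or 6 or mastitis arrays 1, 3, 4, 5 or 6 (adjusted p = 0.05 to 0.109). The block on title numbers ended it as well (adjusted p = 0.0895).

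The zinc and iron importer SLC39A14 and the zinc exporter SLC30A5, which fills secretory vesicles with zinc, were lower in mastitis than in endometritis by -1.35 ± 0.40 and -1.22 ± 0.35 (adjusted p = 0.0313 and 0.0289 by limma). Together with SLC39A9 they made 3 lower and 0 higher calls among the 21 metal carriers (14.3%), beside 10.9% lower and 9.14% higher of all named genes. SLC30A5 values of 2.82, 4.91 and 5.23 in mastitis lay wholly below 5.43, 5.60 and 5.81 in endometritis, though its mastitis arrays overlapped the healthy ones. SLC39A14 lost its call without endometritis arrays 1 to 3 or mastitis arrays 1, 4, 5 or 6 (adjusted p = 0.0522 to 0.079) and with the block on title numbers (adjusted p = 0.0518), and SLC30A5 without endometritis array 1 or 3 or mastitis array 1 (adjusted p = 0.0581 to 0.0696).

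SLC25A5, an ADP/ATP exchanger like SLC25A4, completed the list with -1.07 ± 0.35 (adjusted p = 0.049 by limma). Its call was lost in 14 of 18 fits with 1 array left out, all but those without healthy array 6 or mastitis array 3, 5 or 6 (adjusted p = 0.0548 to 0.116). Of the 19 calls against endometritis, 8 were lost in the fit of 12 arrays, 7 with array weights, 7 with the GAPDH covariate, 3 under hybridisation scaling, 3 with the title block, 3 on the second probe set and 1 under median centring.

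**Figure D4:**
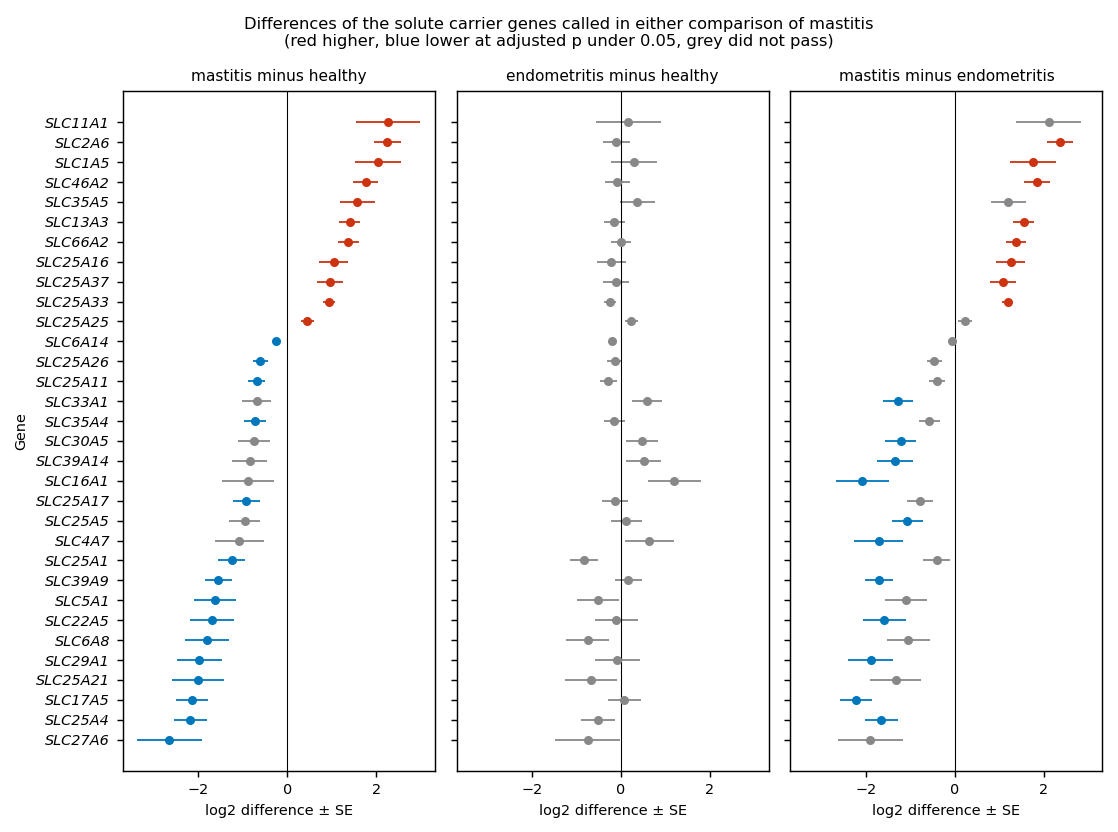
Log2 difference of group means (x axis, 6 arrays per group, bars are the SE) of the 32 solute carrier genes (y axis) that passed in either comparison of mastitis, for mastitis minus healthy, endometritis minus healthy and mastitis minus endometritis. Red is higher and blue lower at an adjusted p under 0.05, and grey did not pass. Every endometritis minus healthy point is grey, and the panels share arrays, so they are not independent of each other.

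Transport genes outside the SLC names were taken from 3 lists: partners and pumps, carriers with other names, and metal handling genes. Of 54 measured, 5 rose and 5 fell in mastitis against healthy, 18.5% beside 27.1% of named genes. The median difference of the 54 was -0.00, against -0.01 over all named genes. None passed in endometritis against healthy by limma, where 1 had an unadjusted p under 0.05, and 4 rose and 6 fell against endometritis, 18.5% beside 20.0% of named genes.

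MPC1 and MPC2, which together form the mitochondrial pyruvate carrier, both fell. MPC2 was at 7.98, 9.75 and 10.32 in healthy cows, 5.22, 5.71 and 6.74 in mastitis and 7.31, 9.04 and 9.95 in endometritis, so the mastitis arrays lay below both other groups without overlap. The difference from healthy was -3.45 ± 0.52 for MPC2 (10.9-fold, adjusted p = 0.000332 by limma) and -2.04 ± 0.40 for MPC1 (adjusted p = 0.002). MTCH1, a carrier relative of the outer mitochondrial membrane, and ANKH, which exports pyrophosphate and citrate, fell by 1.23 ± 0.18 and 1.72 ± 0.52 (adjusted p = 0.000305 and 0.0286). NPC1, which moves cholesterol out of lysosomes, and SLCO4A1, an organic anion carrier, rose by 1.91 ± 0.37 and 1.55 ± 0.41 (adjusted p = 0.00206 and 0.0128).

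Among 19 partners and pumps, FXYD5, a regulator of the sodium pump, and VDAC3, a channel of the outer mitochondrial membrane, rose by 2.31 ± 0.58 and 1.38 ± 0.35 (adjusted p = 0.00976 and 0.0108 by limma). Among 12 metal handling genes, the haem-degrading enzyme HMOX1 rose by 2.59 ± 0.88 (adjusted p = 0.0498), and ACO1, the cytosolic aconitase that also binds iron-responsive messengers, fell by 0.95 ± 0.30 (adjusted p = 0.0353).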

How the data were processed

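RNA of milk cells from 18 cows (6 per group, 1 Affymetrix bovine array each) was used. Per the labels' protocols, RNA with an integrity number above 6 was taken and 100 ng was labelled with a kit that primes at the poly-A tail, so that a fall in RNA integrity lowers probe sets far from the end of a transcript. Per the submitters' processing notes, RMA, GCRMA and limma were used, but which of the first 2 gave these values, and with which log base, is not given in the sources used here. Deposited by the authors were normalised values, read as log2 because they run from 2.43 to 14.2 with a median of 2.55, and every fold change rests on that reading.

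Of 24128 probe sets, 112 are controls and the other 24016 entered a limma fit (limma 3.58.1, R 4.3.3): a single model of 3 groups over 18 arrays (15 residual degrees of freedom), two-sided, with Benjamini-Hochberg adjustment over all 24016 within each comparison, called at an adjusted p under 0.05, dim probe sets included. The number of arrays limits the precision. The replicates are cows of a group per the labels.

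The platform annotation gave 1 symbol to 13292 probe sets, several to 86 and none to 10638, and the symbols of all 162 members were matched through Entrez identifiers to RefSeq names (assembly ARS-UCD2.0, names only). Named genes are 37 carriers of textbook interest (31 measured; SLC7A8, SLC7A11, SLC2A9, SLC40A1, SLC30A4 and SLC15A3 were not measured under these names), per comparison the 8 largest rises and 8 largest falls, up to 3 called members per substrate group, and, where under 5 members were called, the 3 smallest p-values in each direction. SLC5A9, SLC26A11, SLC25A20, SLC28A3, SLC6A2, the other called members and the called genes of the other transport lists were named after their values were seen. Members and lists were chosen with earlier results of these data known. After values were seen, SLC17A5 and SLC17A9 were moved from phosphate to others and SLC7A6OS from amino acids to the non-transporters. Alternatives were a filter on dim probe sets, only the 12 arrays compared, median centring, scaling to 9 hybridisation control probe sets, array weights, a trended prior, a block on the number in the sample titles (above 120 or not), the GAPDH difference as a covariate, the second probe set of a gene, and leaving out each array. Most endometritis arrays had a title number above 120 and most mastitis arrays did not, so that block partly follows the comparison between them. The procedure was tested on simulated data with normally distributed noise and 50 probe sets moved at each size, all with a mean above 2.55. For mastitis against healthy it recovered 10% of differences of 0.5 log2 units, 46% of those of 1 and 84% of those of 2. Far fewer probe sets were moved there than the 4689 called in the real comparison, and the adjustment is stricter when fewer differ. The percentages are therefore not rates for the real comparison. A gene that did not pass is not thereby shown to be unchanged.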

Additional observations from a re-analysis of the deposited data

Results flagged for a closer look

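Each named member was tested for a highest or lowest array standing apart from the rest of its group (Dixon's test). Of 140 groups of 6 arrays, 19 held such an array. Chance flags about 1 in 20 groups when values are normally distributed, and the groups share arrays. Groups with most arrays at the floor break that condition, since any array above the floor then stands apart. The 19 are therefore not read as more than chance gives. The flagged groups fell 7 in healthy, 5 in mastitis and 7 in endometritis.

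Among members that passed a test, the highest healthy array of SLC13A3, the dicarboxylate carrier, was at 3.26 with the next at 2.66, and its lowest endometritis array at 2.43. The iron carrier SLC25A37 had its highest healthy array at 4.29 with the next at 3.72. The ADP/ATP carrier SLC25A5 had its highest healthy array at 9.73 with the next at 8.90. The citrate carrier SLC25A1 had its highest endometritis array at 4.23 with the next at 3.63. The glucose carrier SLC5A1 had its highest mastitis array at 2.75, and the amino acid carrier SLC6A14 its highest endometritis array at 2.86, both close to the floor.

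Among the others, the glutamate carrier SLC1A3 reached 5.19 on endometritis array 5, where the next value was 3.22. The fructose carrier SLC2A5 reached 3.65 on mastitis array 3, where the next was 2.60, and its highest healthy array was at 3.04. The heavy chain SLC3A2 had its lowest endometritis array at 3.46, where the next was 4.12. The phosphate carrier SLC20A2 had its highest healthy array at 3.21. The remaining 7 lie near the floor: the highest healthy arrays of SLC1A1 (2.57) and SLC25A40 (2.59), the highest mastitis arrays of SLC22A23 (2.76), SLC25A40 (2.79) and SLC30A1 (2.63), and the highest endometritis arrays of SLC1A1 (2.75) and SLC4A9 (2.56).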

How the results depend on the processing

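Of the 26 members called in mastitis against healthy, 17 kept their call with any 1 array left out. Under every alternative that applied to them, 7 kept it as well. Of the 19 called against endometritis, these numbers were 11 and 8. The second probe set could be tried only for genes with more than 1. Against healthy these were 10 of the 26, and 8 of the 10 did not pass on it. Against endometritis they were 4 of the 19, and 3 of the 4 did not pass. The 11 rises against healthy became 5 and the 15 falls 2 with the GAPDH difference as a covariate. Under scaling to hybridisation controls, which shifts every mastitis minus healthy difference by 0.27, the falls became 9. Of the 26 calls, 7 were lost under that scaling, 6 with array weights, 4 in the fit of 12 arrays and 4 under median centring. Leaving out 1 array gave 7 to 14 rises (7 without healthy array 3 or 4) and 10 to 17 falls. Against endometritis, 8 rises and 11 falls became 5 and 6 with only the 12 arrays compared, and the falls became 5 with array weights and 5 with the GAPDH covariate. With 1 array left out there were 6 to 11 rises and 5 to 12 falls: 5 falls without endometritis array 1 or mastitis array 1, 6 without endometritis array 3 or mastitis array 4, and 7 without endometritis array 2. The 10 calls among other transport genes became 2 with the GAPDH covariate against healthy (7 to 12 with 1 array left out) and 5 under hybridisation scaling against endometritis (7 to 13). Fewer arrays enter the fit of 12; the cause of the other changes was not tested. In endometritis against healthy, the count was 0 in every fit.

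The mastitis minus healthy difference turned sign for 3 called members. SLC6A14, near the floor, turned to 0.015 under hybridisation scaling. On the second probe set SLC25A25 was at -0.0030 and SLC5A1 at 0.0095, the latter against -1.61 on its brighter probe set. Of uncalled members, hybridisation scaling turned SLC12A2 (0.22), SLC1A1 (0.25), SLC20A2 (0.11), SLC4A9 (0.18, and 0.053 for endometritis minus healthy) and SLC7A5 (0.20). The GAPDH covariate turned SLC12A2 (0.23), SLC1A1 (0.040), SLC30A2 (0.14) and SLC7A5 (0.82), array weights SLC7A5 (0.20), median centring SLC22A23 (-0.012), SLC25A40 (-0.036) and SLC30A1 (-0.046), and the second probe set SLC35A2 (-0.00099). With 1 array left out, the difference ranged from -0.22 to 0.13 for SLC7A5 (above 0 without healthy array 4, mastitis array 1 or mastitis array 4), from -0.098 to 0.023 for SLC12A2 (mastitis array 4), from -0.025 to 0.0010 for SLC1A1 (healthy array 3), from -0.019 to 0.065 for SLC25A40 (below 0 without mastitis array 2) and from -0.093 to 0.18 for SLC2A5 (below 0 without mastitis array 3). No paired analysis was possible because the labels give the groups no shared replicate numbers. Carriers at the floor have no measurable fall.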
